A study of Mus musculus with 10 samples.

Results

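Hemoglobin genes switch during mouse development, and the E13.5 embryo carries blood made on both sides of that switch. Here 9 genes of red blood cells were followed in whole kidneys at E13.5: the embryonic beta-like globins *Hbb-y* and *Hbb-bh1*, the adult beta globins *Hbb-bs* and *Hbb-bt*, the embryonic alpha-like globin *Hba-x*, the adult alpha globins *Hba-a1* and *Hba-a2*, the heme synthesis enzyme gene *Alas2* and the red cell anion exchanger gene *Slc4a1*. They were chosen by symbol, and all 9 were found among the 35663 genes of the table. Bulk RNA-seq was available for 4 wild-type, 3 Foxd1GC control and 3 Ntn1SPKO libraries, all labelled C57/b6. Foxd1GC kidneys carry a Cre allele at the *Foxd1* locus, which is active in renal stromal progenitors and also replaces 1 copy of *Foxd1*. Ntn1SPKO kidneys carry the same Cre allele and conditional alleles of *Ntn1* (netrin 1), so that *Ntn1* is removed from the stroma. The Cre allele is therefore shared by controls and mutants and is absent from wild-type kidneys. The labels do not say whether libraries of 1 group came from separate embryos, so the p-values measure the spread between these libraries.

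The first red cells of the embryo arise in the yolk sac and express embryonic globins, zeta-type globin from *Hba-x* on the alpha side and epsilon-y and beta-h1 from *Hbb-y* and *Hbb-bh1* on the beta side. Definitive red cells, made in the fetal liver, express the adult genes, and both populations circulate together in midgestation. The embryonic to adult globin ratio of a tissue describes the mixture of globin transcripts in its blood, and the summed globin level describes how much blood RNA the sample holds. The shares of the red cell populations themselves were not measured. In whole kidneys, fewer red cells and less globin RNA per red cell cannot be told apart.

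In GRCm38, *Hba-x*, *Hba-a1* and *Hba-a2* lie in that order within 20.9 kb of chromosome 11 (32276400 to 32297298), on the plus strand. *Hbb-bt*, *Hbb-bs*, *Hbb-bh1* and *Hbb-y* lie within 40.7 kb of chromosome 7 (103812524 to 103853216), on the minus strand, so that *Hbb-y* is the first gene in the direction of transcription. Each of these globin genes has 3 exons. *Alas2* lies on the X chromosome (150547375 to 150570638) and *Slc4a1* on chromosome 11 (102348824 to 102366203), away from the alpha globins. The adult genes are near-identical copies, which limits how reads can be divided between them. The coding sequences of *Hba-a1* and *Hba-a2* differ at 1 of 429 bases and those of *Hbb-bs* and *Hbb-bt* at 1 of 444 bases, in neither case changing the protein. The stretches that hold these differences are shown from the start codon's first base as position 1, bases 351 to 411 for the alpha pair and 384 to 444 for the beta pair, with the differing base in capitals.
Hba-a1: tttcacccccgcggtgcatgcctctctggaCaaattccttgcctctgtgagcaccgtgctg
Hba-a2: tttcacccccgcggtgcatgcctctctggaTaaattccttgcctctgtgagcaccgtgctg
Hbb-bs: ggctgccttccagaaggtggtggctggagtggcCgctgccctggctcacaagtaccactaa
Hbb-bt: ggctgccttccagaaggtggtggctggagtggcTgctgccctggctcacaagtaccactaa
Outside the coding sequence the copies differ more. Of all 31-base words of the transcripts, *Hba-a1* shares 71.3% with *Hba-a2* and *Hba-a2* shares 91.0% with *Hba-a1*, while *Hbb-bs* and *Hbb-bt* share 66.9% and 59.4% with each other. The embryonic genes are distinct, since *Hbb-y* and *Hbb-bh1* are 76.4% identical in coding sequence and share no 31-base word with each other or with an adult gene. Sums over the adult copies are therefore used in the ratios, and values and ranks of single copies are uncertain.

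As background, promoters are shown for 1 embryonic and 1 adult gene of each cluster, and no effect of a promoter on the values was tested. These are the 250 bases before the RefSeq start (GRCm38.p6), *Hbb-y* at chr7:103853208-103853457 and *Hbb-bs* at chr7:103827929-103828178 on the minus strand, and *Hba-x* at chr11:32276350-32276599 and *Hba-a1* at chr11:32283422-32283671 on the plus strand. Capitals mark the searched motifs.
Hbb-y promoter: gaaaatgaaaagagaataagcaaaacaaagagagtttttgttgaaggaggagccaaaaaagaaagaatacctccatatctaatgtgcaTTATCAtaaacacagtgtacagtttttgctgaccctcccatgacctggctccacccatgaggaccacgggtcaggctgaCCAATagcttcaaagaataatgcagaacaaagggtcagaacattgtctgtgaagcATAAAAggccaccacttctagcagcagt
Hbb-bs promoter: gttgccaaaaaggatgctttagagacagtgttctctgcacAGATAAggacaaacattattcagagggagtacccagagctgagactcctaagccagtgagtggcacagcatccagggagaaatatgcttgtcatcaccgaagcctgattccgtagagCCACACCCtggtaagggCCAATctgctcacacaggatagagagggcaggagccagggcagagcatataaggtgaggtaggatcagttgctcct
Hba-x promoter: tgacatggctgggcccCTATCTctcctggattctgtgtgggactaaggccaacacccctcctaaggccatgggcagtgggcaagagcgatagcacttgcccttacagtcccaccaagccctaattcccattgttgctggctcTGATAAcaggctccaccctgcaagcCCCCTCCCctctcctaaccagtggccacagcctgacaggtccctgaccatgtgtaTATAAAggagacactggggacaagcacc
Hba-a1 promoter: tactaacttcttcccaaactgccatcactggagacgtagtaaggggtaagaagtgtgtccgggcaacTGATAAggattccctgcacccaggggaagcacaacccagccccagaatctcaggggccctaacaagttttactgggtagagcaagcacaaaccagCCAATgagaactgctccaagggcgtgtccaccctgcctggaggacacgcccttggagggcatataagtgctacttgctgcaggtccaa
The motifs were searched on both strands as AGATAA or AGATAG and TGATAA or TGATAG for GATA, CCNCNCCC for the CACC box, the letters of CCAAT itself, and TATAAA or ATAAAA for TATA. A RefSeq promoter was matched for 7 of the 9 genes, that is all but *Hbb-bh1* and *Slc4a1*. A GATA motif was found in 6 of these 7, the exception being *Hbb-bt*, against 26.5% of 32851 promoters of all genes. CCAAT was found in 5 of 7 (33.8% of all promoters), the CACC box in 4 of 7 (45.9%) and TATA in 4 of 7 (22.8%). The *Hba-a1* and *Hba-a2* windows are nearly the same sequence, with TGATAA from 183 and 186 and CCAAT from 88 and 91 bases before the start. Their GATA and CCAAT matches are therefore not separate, although both genes are counted. In the other 3 windows, *Hba-a2* held GATA and CCAAT, *Hbb-bt* held CACC, CCAAT and TATA, and *Alas2* held GATA, CACC and TATA. In *Alas2* a GATA and a TATA match share bases, and some CACC matches overlap each other. A match says only that the letters are there.

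Several facts of the libraries bear on the values. Depth, estimated from the steps of low values, was 24100000 to 29300000 fragments. The fewest fragments behind a member's value, about 208 for *Hbb-bh1* in Ntn1SPKO replicate 2, give a counting error of 6.93%. *Ntn1* was 10.7 to 16.3 FPKM in Ntn1SPKO libraries, below all controls (24.2 to 51.4) and all wild-type libraries (27.1 to 46.3). Foxd1GC control replicate 3 stood apart, with *Ret* (a ureteric tip receptor) at 4.09 FPKM against 14.1 to 20.9 in the other libraries and *Calb1* (ureteric epithelium) at 16.4 against 57.4 to 74.9. The summed Y-linked genes *Ddx3y*, *Kdm5d*, *Uty* and *Eif2s3y* were at 88.6 to 98.1 FPKM in 1 of 4 wild-type (replicate 3), 1 of 3 control (replicate 2) and 3 of 3 Ntn1SPKO libraries, and at 0.210 to 1.02 FPKM in the others, so embryo sex and group overlap in part.

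Globin transcripts were among the most abundant of these kidneys, and their sum differed up to 3.90-fold between libraries. The 7 globins summed to 6235, 5502, 10797 and 4771 FPKM in wild-type replicates 1 to 4. The sums were 16108, 7933 and 18075 FPKM in Foxd1GC control replicates 1 to 3 and 4889, 5701 and 18603 FPKM in Ntn1SPKO replicates 1 to 3. Control replicates 1 and 3 and Ntn1SPKO replicate 3 were thus high, Ntn1SPKO replicates 1 and 2 lay within the wild-type range, and control replicate 2 lay below wild-type replicate 3. As a share of the summed FPKM of a library, the globins took 0.783% ± 0.211 (SD, n = 4) in wild-type, 1.67% ± 0.603 (SD, n = 3) in control and 1.19% ± 0.939 (SD, n = 3) in Ntn1SPKO kidneys. The same 3 libraries held the 3 highest values of all 9 genes, *Alas2* and *Slc4a1* included.

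**Figure D1:**
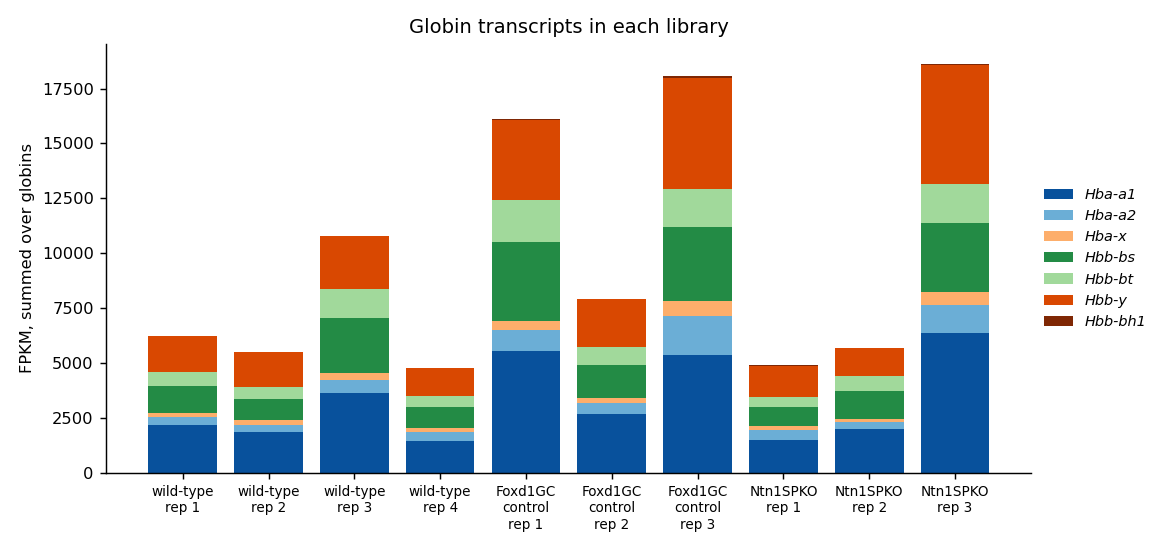
Stacked bars give the FPKM of each of the 7 globins (colours) in each of the 10 libraries (x axis), with the y axis summing them from 0. Control replicates 1 and 3 and Ntn1SPKO replicate 3 reach 16108 to 18603 FPKM, and the other 7 libraries stay between 4771 and 10797.

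The order of the levels was nearly fixed. FPKM is scaled by transcript length, so genes can be set side by side on it, although the places of single adult copies rest on the uncertain division of their reads. *Hba-a1* was the highest member in 10 of 10 libraries (mean 3257 FPKM, n = 10), ranking between 6th and 90th of all genes. *Hbb-y* (2591 FPKM) exceeded *Hbb-bs* (1930 FPKM) in 9 of 10 libraries, 1.34-fold on average, with log2 ratios from −0.07 to 0.79. The difference between these neighbours was not tested. Next came *Hbb-bt* (1046 FPKM) and *Hba-a2* (694 FPKM), which also changed places in 1 library, and *Hba-x* (315 FPKM), sixth in every library. *Hbb-bh1* was seventh in every library at 28.2 FPKM, and *Hba-x* exceeded it 11.7-fold on average. *Alas2* (15.2 FPKM) and *Slc4a1* (13.55 FPKM) closed the order and could not be separated, *Alas2* being higher in 6 of 10 libraries. Across the 36 pairs of members, Pearson's r of log2(FPKM + 0.1) over the 10 libraries was 0.77 to 1.00 with a median of 0.93, and the median stayed at 0.90 after group means were removed. These correlations are a description, since all genes share the libraries and their scaling.

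*Hbb-y*, the main embryonic beta-like globin, was at 1625, 1568, 2398 and 1274 FPKM in wild-type replicates 1 to 4. It was at 3650, 2200 and 5078 FPKM in control replicates 1 to 3 and at 1420, 1303 and 5396 FPKM in Ntn1SPKO replicates 1 to 3. Ntn1SPKO replicate 3 was the highest of all libraries for this gene, while the other 2 mutants lay within the wild-type range, so mutants overlapped both groups. *Hbb-bh1*, which is expressed earliest in yolk sac blood and is silenced before *Hbb-y*, was at 15.2, 17.4, 23.2 and 15.3 FPKM in wild-type, 39.0, 17.8 and 81.7 FPKM in control and 17.7, 12.6 and 42.3 FPKM in Ntn1SPKO replicates. It was thus far below *Hbb-y* everywhere, the ratio of *Hbb-y* to *Hbb-bh1* being 62.2 to 128 with a median of 98.5. The lowest of these ratios was in control replicate 3, which had the highest *Hbb-bh1*.

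The adult beta globins carried more transcript than the embryonic ones in 6 of 10 libraries. *Hbb-bs* and *Hbb-bt* together were at 1868, 1537, 3850 and 1463 FPKM in wild-type, 5513, 2295 and 5078 FPKM in control and 1321, 1922 and 4913 FPKM in Ntn1SPKO replicates. Wild-type replicate 3 lay well above the other wild-type libraries here, and Ntn1SPKO replicate 3 above the other mutants. Taken singly, *Hbb-bs* was at 1202, 981, 2519 and 967 FPKM in wild-type, 3601, 1482 and 3335 FPKM in control and 845, 1254 and 3111 FPKM in Ntn1SPKO replicates. *Hbb-bt* was at 666, 556, 1331 and 495 FPKM in wild-type, 1912, 813 and 1743 FPKM in control and 476, 668 and 1802 FPKM in Ntn1SPKO replicates. The ratio of *Hbb-bs* to *Hbb-bt* stayed within 1.73 to 1.95 in all 10 libraries.

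On the alpha side, the embryonic gene *Hba-x* was at 202, 202, 301 and 159 FPKM in wild-type, 401, 250 and 693 FPKM in control and 189, 147 and 609 FPKM in Ntn1SPKO replicates. The adult genes *Hba-a1* and *Hba-a2* together were at 2525, 2177, 4225 and 1859 FPKM in wild-type, 6505, 3170 and 7144 FPKM in control and 1941, 2317 and 7643 FPKM in Ntn1SPKO replicates. The alpha side thus ran in the same 3 high libraries as the beta side. *Hba-a1* alone ranged from 1459 FPKM in wild-type replicate 4 to 6377 FPKM in Ntn1SPKO replicate 3, and *Hba-a2* alone from 304 FPKM in wild-type replicate 2 to 1769 FPKM in control replicate 3. Unlike that of the beta copies, the ratio of *Hba-a1* to *Hba-a2* spread from 3.04 in control replicate 3 to 6.17 in wild-type replicate 2. Alpha and beta sides were closely matched, all alpha-like to all beta-like FPKM giving 0.749 ± 0.0255 (SD, n = 4) in wild-type, 0.758 ± 0.00747 (SD, n = 3) in control and 0.777 ± 0.0184 (SD, n = 3) in Ntn1SPKO kidneys. In all 10 libraries this ratio stayed within 0.722 to 0.797, although the summed level differed up to 3.90-fold.

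*Alas2* encodes the erythroid form of the enzyme that starts heme synthesis. It was at 10.2, 8.43, 12.7 and 7.17 FPKM in wild-type, 26.8, 12.5 and 29.4 FPKM in control and 7.39, 8.38 and 29.1 FPKM in Ntn1SPKO replicates. Control replicate 2 fell just below the highest wild-type library for this gene, so the groups overlapped. *Slc4a1*, which encodes band 3 of the red cell membrane, was at 7.84, 9.03, 8.25 and 3.11 FPKM in wild-type, 19.3, 12.8 and 28.2 FPKM in control and 9.41, 5.36 and 32.2 FPKM in Ntn1SPKO replicates. It spread most of all members (10.4-fold between the lowest and the highest library). Its control and wild-type libraries did not overlap, which held for no other member and for 8.09% of all genes tested.

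**Figure D2:**
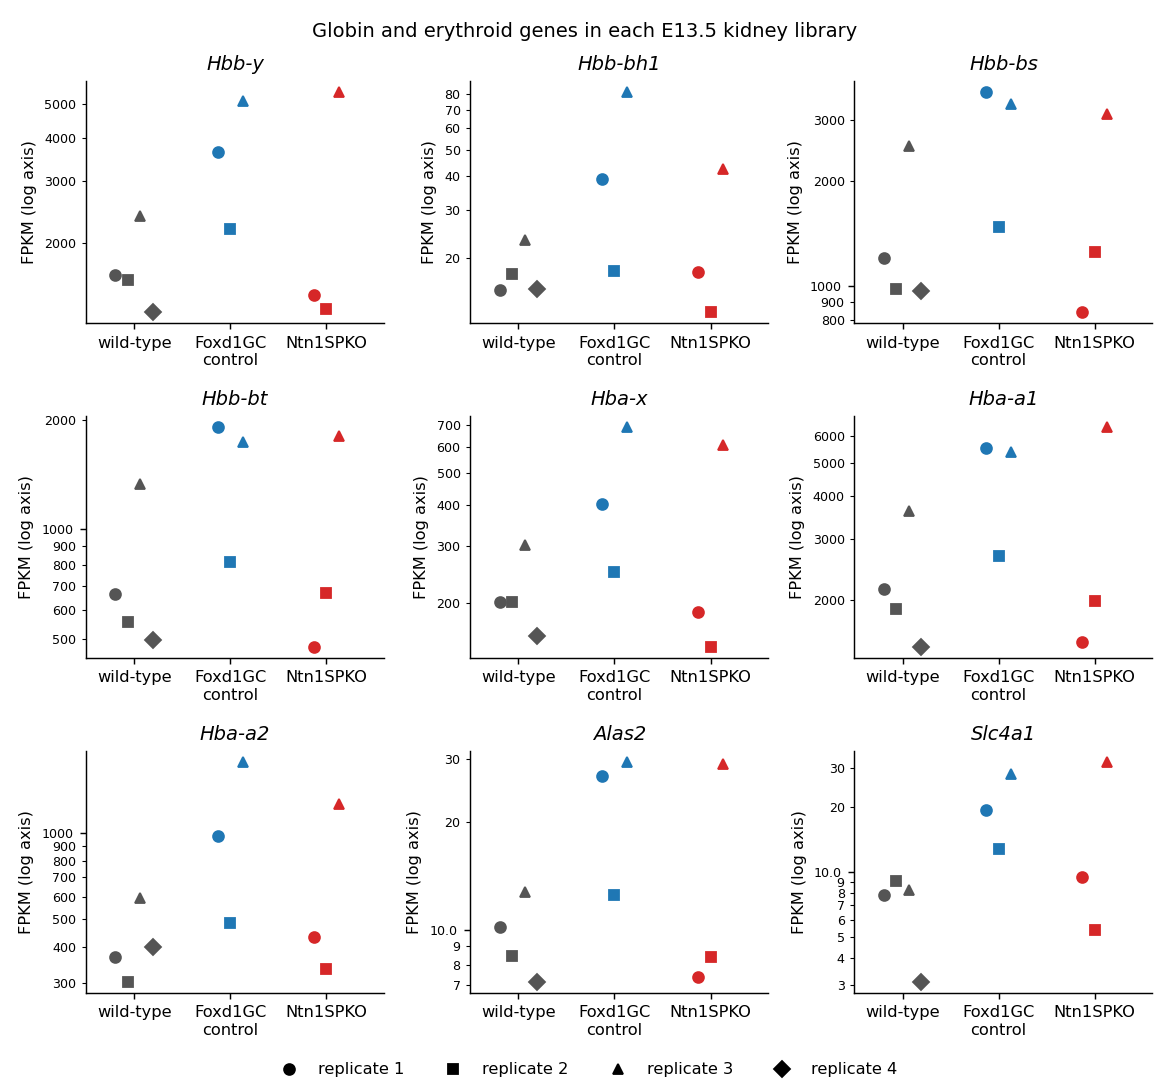
Each panel shows 1 gene, with FPKM on a log axis, libraries by group on the x axis and marker shapes for replicate numbers. Control replicates 1 and 3 and Ntn1SPKO replicate 3 are the 3 highest points in all 9 panels, and Ntn1SPKO replicates 1 and 2 both lie within the wild-type range in 4 of 9 panels.

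The comparison that the study was built on, Ntn1SPKO against Foxd1GC control, asks what the loss of stromal *Ntn1* changes. All 9 genes had lower means in Ntn1SPKO kidneys, where 48.8% of the 14550 genes tested were lower, with log2 fold changes of −0.86 (*Hbb-bh1*) to −0.68 (*Hbb-y*), a median of −0.73 against 0.01 over all genes tested, and standard errors of 0.55 to 0.66. By limma 0 of 9 were called at an adjusted p under 0.1 and at least 2-fold (0.055% of all genes were), with adjusted p-values of 0.515 to 0.621. At an unadjusted p under 0.05, 0 of 9 were lower, against 5.17% of all genes. A 2-fold difference was reached by 0 of 9 (4.34% of all genes, either direction), and groups did not overlap for 0 of 9 (19.9%). Exact permutation p was 0.2 to 0.5 per gene, and 3 against 3 libraries cannot go below 0.1. The size of the difference moved with single libraries of both groups: the median of the 9 log2 fold changes was −1.34 without Ntn1SPKO replicate 3, −1.14 without control replicate 2, −0.46 without Ntn1SPKO replicate 1, −0.47 without Ntn1SPKO replicate 2 and −0.41 without control replicate 3. With embryo sex as a covariate, which here rests on control replicate 2 alone, the median was 0.01, with 4 genes lower and 5 higher.

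Against wild-type kidneys, the same Ntn1SPKO libraries had higher means for 9 of 9 genes (51.1% of 14432 genes were higher). The log2 fold changes ran from 0.19 (*Hbb-bs*) to 0.84 (*Slc4a1*) with a median of 0.31 against 0.00 over all genes, and standard errors were 0.38 to 0.62. By limma 0 of 9 were called (0.0485% of all genes), with adjusted p-values of 0.947 to 0.962, and the exact permutation p was 0.343 to 0.743 per gene. At an unadjusted p under 0.05, 0 of 9 were higher (2.45% of all genes). In this comparison 0 of 9 reached 2-fold (3.17%) and 0 of 9 had groups that did not overlap (7.1%). The direction rested on Ntn1SPKO replicate 3: without it 8 of 9 genes were lower than in wild-type kidneys, with log2 fold changes of −0.34 to 0.12. With embryo sex as a covariate 8 of 9 were also lower, with a median of −0.16. The term for sex rests on wild-type replicate 3 alone in that fit.

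Foxd1GC control kidneys, set against wild-type kidneys to show what goes with the Cre allele itself, had the widest differences. All 9 genes had higher means in controls (48.4% of 14594 genes were higher), by log2 fold changes of 0.97 (*Hba-x*) to 1.53 (*Slc4a1*) with a median of 1.04 against −0.01 over all genes, and standard errors of 0.31 to 0.45. At least 2-fold was reached by 7 of 9 (3.23% of all genes, either direction) and an unadjusted p under 0.05 by 9 of 9 (3.84% of all genes, higher). Over all genes, however, limma gave each of the 9 an adjusted p of 0.665 and called 0 of 9 (0.00685% of all genes were called, that is 1 gene). Groups did not overlap for *Slc4a1* alone (8.09% of all genes), whose exact permutation p of 0.0286 is the smallest that 3 against 4 libraries allow. For the other genes the exact permutation p was 0.0571 to 0.114. The members rise and fall together across libraries, so their 9 differences are not 9 separate pieces of evidence. The median over the members rose to 1.41 when control replicate 2 was left out, again with 0 of 9 called. The lowest limma adjusted p of a member in that fit was 0.100037, just above the limit of 0.1. The median was 0.83 when control replicate 3, the library that stood apart in kidney genes, was left out. In the 5 libraries without Y-linked transcripts, both control libraries exceeded all 3 wild-type libraries for 9 of 9 genes (21.2% of all genes), by log2 differences of 1.5 to 1.93. That split leaves out the control library lowest and the wild-type library highest in summed globins (7933 and 10797 FPKM). Members that move together then come apart together, so this is no separate support for a difference. The other sex has 1 library in each of these groups, and that pair went the other way for every member except *Slc4a1*. Control replicate 2 was below wild-type replicate 3 there, as for *Hbb-y* at 2200 against 2398 FPKM, while *Slc4a1* was at 12.8 against 8.25 FPKM. With 1 library against 1, that pair cannot show whether the direction differs between the sexes. Both comparisons against controls use the same 3 control libraries, and both against wild type use the same 4 wild-type libraries, so the 3 comparisons are not independent.

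**Figure D3:**
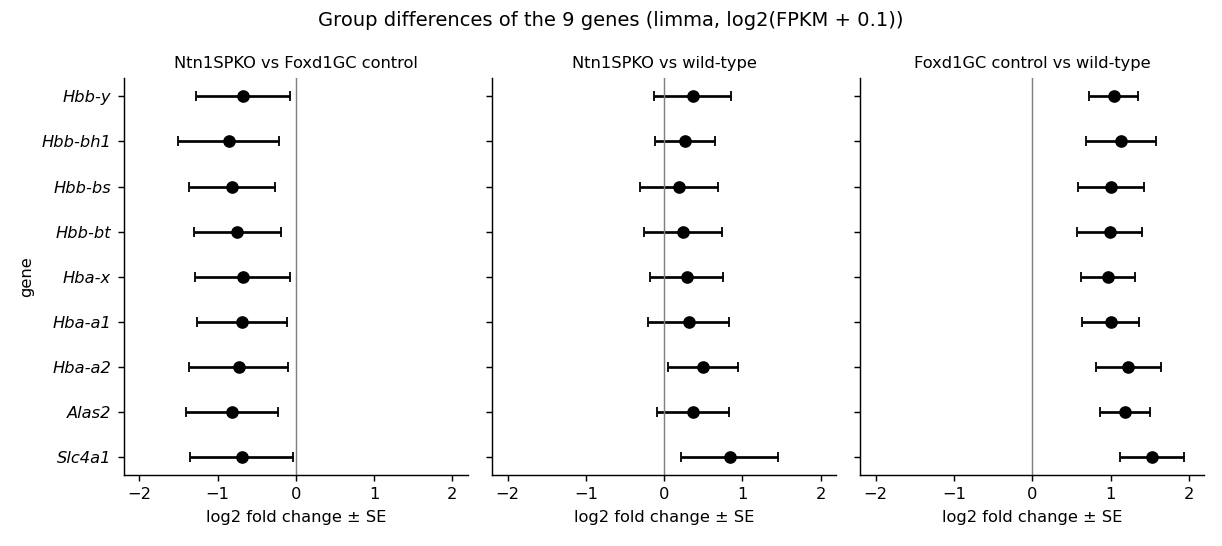
Points are log2 fold changes of the 9 genes (y axis) on the log2(FPKM + 0.1) scale and bars are standard errors from limma, 1 panel for each comparison. Values lie between −0.86 and −0.68 for Ntn1SPKO against control, 0.19 and 0.84 for Ntn1SPKO against wild-type, and 0.97 and 1.53 for control against wild-type kidneys, and 0 of 27 differences were called.

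The embryonic to adult ratio separates the make-up of the globin transcripts from their amount, because numerator and denominator come from the same library. The beta ratio, *Hbb-y* plus *Hbb-bh1* over *Hbb-bs* plus *Hbb-bt*, was 0.878, 1.03, 0.629 and 0.881 in wild-type replicates 1 to 4. It was 0.669, 0.966 and 1.02 in control replicates 1 to 3 and 1.09, 0.684 and 1.11 in Ntn1SPKO replicates 1 to 3. Embryonic and adult beta-like transcripts were therefore of similar abundance, with 38.6% to 52.5% of beta-like FPKM embryonic, and each group had 1 library that was clearly lower than its others. The group means were 0.855 ± 0.167 (SD, n = 4), 0.884 ± 0.188 (SD, n = 3) and 0.960 ± 0.239 (SD, n = 3). The log2 difference was 0.11 (standard error 0.30) for Ntn1SPKO against control, with an exact permutation p of 0.5 in a two-sided test. It was 0.16 (standard error 0.27, exact permutation p = 0.486) for Ntn1SPKO against wild-type and 0.05 (standard error 0.24, exact permutation p = 0.83) for control against wild-type kidneys. With embryo sex as a covariate, resting on wild-type replicate 3 alone, the difference for Ntn1SPKO against wild-type kidneys was 0.58, and it was 0.02 without wild-type replicate 3 and 0.38 without Ntn1SPKO replicate 2. Leaving out single libraries turned the sign of the other 2 beta differences, which ranged from −0.08 to 0.34 and from −0.09 to 0.24. Groups overlapped in each comparison, and the adjusted p over the 6 ratio comparisons was 0.83 throughout.

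The alpha ratio, *Hba-x* over *Hba-a1* plus *Hba-a2*, was about 10 times lower than the beta ratio. It was 0.0799, 0.0930, 0.0712 and 0.0857 in wild-type, 0.0617, 0.0789 and 0.0970 in control and 0.0972, 0.0636 and 0.0797 in Ntn1SPKO replicates. The embryonic gene thus gave 5.81% to 8.86% of alpha-like FPKM, and again groups overlapped. Group means were 0.0824 ± 0.00921 (SD, n = 4), 0.0792 ± 0.0176 (SD, n = 3) and 0.0802 ± 0.0168 (SD, n = 3). Log2 differences were 0.02 (standard error 0.26, exact permutation p = 0.7) for Ntn1SPKO against control, −0.06 (standard error 0.19, exact permutation p = 0.771) for Ntn1SPKO against wild-type and −0.08 (standard error 0.21, exact permutation p = 0.686) for control against wild-type kidneys. With these standard errors only large shifts of either ratio could have been seen, and the test does not show that the groups were alike.

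**Figure D4:**
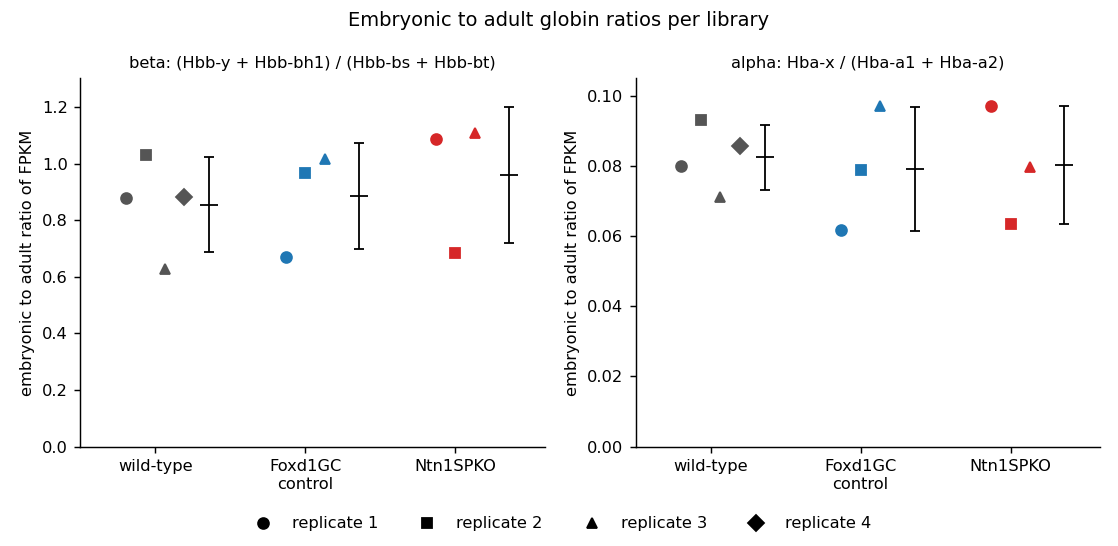
Points are the embryonic to adult ratio of FPKM in each library (y axis from 0), for beta globins on the left and alpha globins on the right, by group, with marker shapes for replicates and black bars for mean ± SD. The groups overlap in both panels, with beta ratios of 0.629 to 1.11 and alpha ratios of 0.0617 to 0.0972.

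Both ratios were low in the same 3 libraries, 1 of each group. Wild-type replicate 3, control replicate 1 and Ntn1SPKO replicate 2 had beta ratios of 0.629 to 0.684 and alpha ratios of 0.0617 to 0.0712, and the other 7 libraries had beta ratios of 0.878 to 1.11 and alpha ratios of 0.0789 to 0.0972. The 3 were set apart at the widest gap of the log2 beta ratio, so the split comes from the values it describes. On the alpha ratio they were also the 3 lowest, but no clear gap set them apart. Their alpha ratios were 0.0617, 0.0636 and 0.0712, and the next library was at 0.0789. Because of the gap in the beta ratio, no correlation over all 10 is given. Among the 7 upper libraries, a narrowed range of the beta ratio, Pearson's r of the log2 ratios was 0.39 (exact permutation p = 0.370). Spearman's rho was 0.25 (exact permutation p = 0.595), and r was 0.15 without the 2 libraries farthest from the median beta ratio. No relation between the ratios was shown within these 7 libraries. This was the only relation of its kind computed. The low ratios did not go with 1 level of blood RNA, since the summed globins of those 3 libraries were 10797, 16108 and 5701 FPKM, nor with 1 sex, since wild-type replicate 3 and Ntn1SPKO replicate 2 had Y-linked transcripts and control replicate 1 did not.

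**Figure D5:**
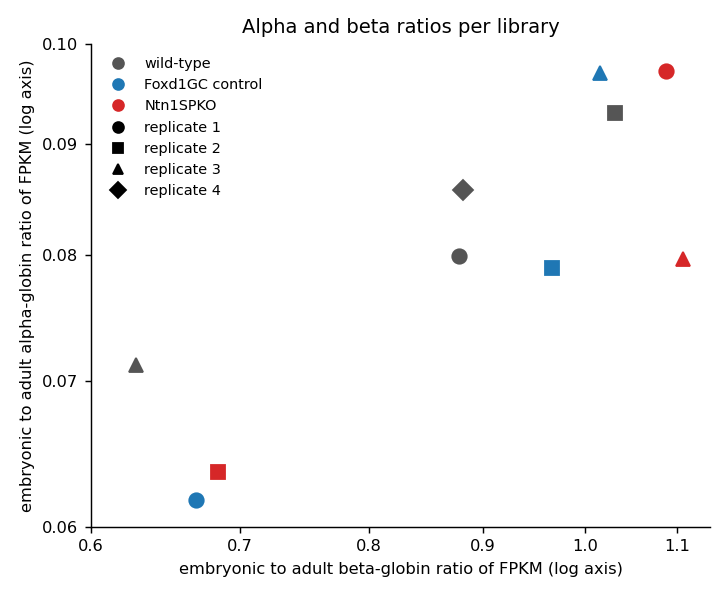
Each point is 1 library, with the beta ratio on the x axis and the alpha ratio on the y axis (both log axes), colours for groups and shapes for replicates. On the beta axis 3 libraries, 1 from each genotype, lie apart from the other 7, below a beta ratio of 0.69. They also lie below an alpha ratio of 0.072, with no clear gap on that axis.

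Other erythroid genes were read from the same fits in 6 lists, and 0 genes of any list were called in any comparison. Of 12 tested genes of heme synthesis and iron uptake, 9 were lower in Ntn1SPKO than in control kidneys (median −0.08) and 10 were higher in control than in wild-type kidneys (median 0.16). Of 12 tested red cell membrane genes, 10 were lower in Ntn1SPKO than in control kidneys (median −0.38) and 10 higher in control than in wild-type kidneys (median 0.54). The highest of them, *Epb41* (protein 4.1R, also used outside red cells), went the other way, at 62.9 to 80.0 FPKM in wild-type, 55.6 to 68.7 in control and 69.5 to 88.1 in Ntn1SPKO kidneys. Of 9 tested red cell enzymes and late erythroid genes, 7 were lower in Ntn1SPKO than in control kidneys (median −0.43) and 7 higher in control than in wild-type kidneys (median 0.58), while *Prdx2* (peroxiredoxin 2, abundant in red cells and present in many others) was at 602 to 924 FPKM with log2 fold changes of −0.04, −0.10 and −0.06 in the 3 comparisons (Ntn1SPKO against control, Ntn1SPKO against wild-type and control against wild-type). Against wild type, Ntn1SPKO kidneys had 8 of 12, 8 of 12 and 7 of 9 genes of these lists higher. At an unadjusted p under 0.05 these 3 lists had 0 of 12, 2 of 12 and 1 of 9 genes in Ntn1SPKO against control (1551 of 14550 over all genes, either direction), 0 of 12, 2 of 12 and 1 of 9 in Ntn1SPKO against wild-type (832 of 14432) and 4 of 12, 4 of 12 and 3 of 9 in control against wild-type kidneys (1031 of 14594). The medians over all genes tested were 0.01, 0.00 and −0.01 in the 3 comparisons.

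Erythroid regulators differed widely in level. Of the 5 tested genes of erythroid transcription factors and the erythropoietin receptor, 3 were lower and 2 higher in Ntn1SPKO than in control kidneys (median −0.04), and 5 of 5 were higher in control than in wild-type kidneys (median 0.16). *Zfpm1*, a GATA cofactor and the highest of that list, ranged from 7.12 to 23.7 FPKM, and *Gata1*, the central erythroid factor, was below the filter at 0.103 to 0.718 FPKM, highest in Ntn1SPKO replicate 3 and control replicate 3. Of the 8 regulators of the globin switch, 6 were higher and 2 lower in Ntn1SPKO than in control kidneys (median 0.09), and *Chd4*, a chromatin remodeller expressed in most cells and the highest of them, was at 122 to 180 FPKM. Among other globins, *Hbb-bh0*, annotated as an unprocessed pseudogene of 129 bases between *Hbb-bh1* and *Hbb-y*, was at 29.6, 43.5, 66.9 and 19.3 FPKM in wild-type, 51.4, 61.5 and 78.2 FPKM in control and 25.4, 25.3 and 141 FPKM in Ntn1SPKO replicates. Below the filter in every comparison were *Gfi1b*, *Tfr2*, *Rhag*, *Ermap*, *Car1*, *Pklr*, *Trim58*, *Hbb-bh2* and *Hbq1a*. *Ahsp*, *Klf1*, *Hbb-b1* and *Hbb-b2* were not analysed here.

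The genes most like 1 embryonic and 1 adult globin across the 10 libraries, among 14534 genes averaging 0.5 FPKM or more, included red cell genes. For *Hbb-y* the closest genes other than members included *Fech* (r = 0.98), the last enzyme of heme synthesis, *Car2* (0.98), a carbonic anhydrase of red cells, *Hsd3b6* (0.97) and *Sptb* (0.97), which encodes the beta chain of red cell spectrin. For *Hbb-bt* they included *Blvrb* (0.99), *Car2* (0.96) and *Ctsb* (0.95). These values of Pearson's r of log2(FPKM + 0.1) are a description over shared libraries. *Hbb-y* itself was closest to *Hba-x* (0.99) among members and *Hbb-bt* to *Hbb-bs* (1.00) and *Hba-a1* (0.99).

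Markers of other cells moved with these genes in part. Hepatocytes surround the red cell precursors of the fetal liver, and 12 of 12 hepatocyte markers were above 0 in each group, with *Alb* (albumin) at 1.69 to 6.20 FPKM in wild-type, 3.65 to 8.74 in control and 0.703 to 4.27 in Ntn1SPKO kidneys. Their sum was 30.8, 12.1, 22.2 and 14.0 FPKM in wild-type, 39.2, 17.8 and 39.7 FPKM in control and 10.1, 9.87 and 19.9 FPKM in Ntn1SPKO replicates. Within controls and within mutants the libraries high in globin were also the highest here. Within wild-type kidneys this did not hold, replicate 3 being highest in globin and replicate 1 in hepatocyte markers. Macrophage markers summed to 34.4 to 48.3 FPKM in wild-type, 32.6 to 65.5 in control and 31.7 to 41.5 in Ntn1SPKO kidneys. Of these markers, 11 of 11 were above 0 in each group. The megakaryocyte and platelet markers summed to 14.1 to 38.3, 19.0 to 28.6 and 12.6 to 19.4 FPKM, with 9 of 9 above 0. In each group the library highest in globin was also highest in both sums, with 1 exception. The megakaryocyte and platelet sum was 14.6 FPKM in Ntn1SPKO replicate 3 and 19.4 FPKM in Ntn1SPKO replicate 1. Endothelial markers summed to 203 to 254 FPKM in wild-type, 254 to 287 in control and 242 to 274 in Ntn1SPKO kidneys, and kidney markers to 501 to 577, 454 to 519 and 529 to 592 FPKM, each with 12 of 12 above 0. In Ntn1SPKO against control kidneys, 6 of 6 tested hepatocyte, 10 of 10 macrophage and 5 of 5 megakaryocyte and platelet markers were lower. In control against wild-type kidneys the same numbers were higher. Over all genes tested, 48.8% were lower in the former comparison and 48.4% higher in the latter. In Ntn1SPKO against wild-type kidneys all 9 members had higher means, as did 51.1% of all genes tested. There, 5 of 5 tested hepatocyte (median −0.73) and 10 of 10 macrophage markers (median −0.16) were lower. So were 5 of 5 megakaryocyte and platelet markers (median −0.38). An unadjusted p under 0.05 was reached in Ntn1SPKO against control kidneys by 4 of the 6 hepatocyte and 1 of the 10 macrophage markers. It was also reached by 2 of the 5 megakaryocyte and platelet markers, against 1551 of 14550 over all genes tested (either direction). In Ntn1SPKO against wild-type (832 of 14432) and control against wild-type kidneys (1031 of 14594), 0 of these markers reached it. Limma called 0 of them throughout. The part of these other cells in the differences of globin genes was not tested.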

How the data were processed

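Whole E13.5 kidneys were measured by RNA-seq in 4 wild-type, 3 Foxd1GC control and 3 Ntn1SPKO libraries. Per the labels and the study's methods, the authors made base calls with bcl2fastq 2.17.1.14, estimated transcript abundance with Salmon (version not given in the sources used here) on GRCm38 coding sequences, and imported it to genes. The deposited values are FPKM. Low values of 786 single-transcript genes fell within 0.15 of whole fragments in 86.6% to 94.8% of cases on full transcript length, but in 30.8% to 46.7% on coding length, so the FPKM follow full transcripts. Summed FPKM was 795829 to 1002638 per library.

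limma 3.58.1 (R 4.3.3, eBayes with intensity trend) was fitted on log2(FPKM + 0.1) for the 2 groups compared, over genes averaging 0.5 FPKM or more, with Benjamini-Hochberg adjustment over all genes. Calls needed an adjusted p (two-sided) below 0.1 and a change of 2-fold or more. A fold change on this scale understates that of low genes. Ratios and single genes were tested by exact permutation over libraries (scipy 1.17.1). The fit was tested on simulated data. Named from the lists are called genes, the highest gene of each list and genes below the filter. Likeness names those among the 5 closest genes. Some genes that these rules name are not reported here. The members and lists were chosen with earlier results of these data known. Coordinates are GENCODE M21, sequences GENCODE or RefSeq. Alternatives covered the pseudocount, filter, scaling, model, replicate block, thresholds and each library left out, and embryo sex was added after the data were seen.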

Additional observations from a re-analysis of the deposited data

Results flagged for a closer look

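In groups of 4 to 10 libraries, which here means wild-type only, a library was flagged when its gap to the nearest other library exceeded Dixon's critical value for the share of its group's range. Of 18 quantities checked, 3 were flagged, and chance flags about 1 in 20 groups. *Hbb-bs* in wild-type replicate 3 was at 2519 FPKM, with the other 3 libraries at 967 to 1202 FPKM and a gap of 0.849 of the range. The adult beta sum of *Hbb-bs* and *Hbb-bt* in the same library was 3850 FPKM, with the others at 1463 to 1868 FPKM and a gap of 0.830, and it holds *Hbb-bs*, so both flags are 1 observation. The ratio of *Hba-a1* to *Hba-a2* in wild-type replicate 4 was 3.64, with the others at 5.85 to 6.17 and a gap of 0.871. That ratio depends on how reads of near-identical copies were divided, which was not tested.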

How the results depend on the processing

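The count of called members stayed at 0 in each comparison under each alternative other than an unadjusted p below 0.1 in place of the adjusted one. With that setting, 7 of 9 were called in control against wild-type kidneys. These are the 7 that reached 2-fold, as did 3.23% of all genes in that comparison (either direction). That share is the most that this setting could call there. Without control replicate 2, the lowest limma adjusted p of a member in that comparison was 0.100037, just above the limit of 0.1. Without Ntn1SPKO replicate 3, 8 members reversed against wild type: *Hba-x* −0.34, *Hba-a1* −0.32, *Hba-a2* −0.081, *Hbb-y* −0.30, *Hbb-bh1* −0.23, *Hbb-bs* −0.34, *Hbb-bt* −0.32 and *Alas2* −0.25, their highest values with another library left out being 0.69, 0.72, 0.87, 0.73, 0.64, 0.60, 0.64 and 0.73. With embryo sex as a covariate, the same 8 were −0.23, −0.44, −0.059, −0.16, −0.13, −0.76, −0.68 and −0.062 against wild type, and against controls *Hba-x* was 0.037, *Hba-a2* 0.22, *Hbb-bh1* 0.24, *Hbb-bs* 0.0063 and *Hbb-bt* 0.031, while the beta ratio of Ntn1SPKO against wild-type kidneys moved to 0.58 from 0.16. The cause was not tested. Other ratio differences moved by less than 1 SD, and leaving out single libraries gave beta ratio differences of −0.08 to 0.34, 0.02 to 0.38 and −0.09 to 0.24 and alpha ratio differences of −0.15 to 0.18, −0.21 to 0.10 and −0.23 to 0.09 for Ntn1SPKO against control, Ntn1SPKO against wild-type and control against wild-type kidneys.

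Replicate numbers did not pair the libraries (correlations of deviations −0.04 to 0.08). In the paired fit with the replicate block 0 members were called, the lowest adjusted p was 0.444 and the beta ratio differences were 0.11, 0.18 and 0.07, while calls over all genes in Ntn1SPKO against control kidneys went from 8 to 4. Calls over all genes, 8, 7 and 1, ranged over 0 to 78, 0 to 187 and 0 to 20 at the adjusted thresholds. *Hbb-b1* and *Hbb-b2* could not be added to the beta ratio, so that alternative was not run. Depth limits members little, and the 3 or 4 libraries a group limit each comparison.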

Other observations

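*Bcl11a*, which encodes a repressor of embryonic and fetal globin genes and is also expressed outside blood, was named after its values were seen. It was at 2.34, 2.24 and 2.91 FPKM in Ntn1SPKO replicates, at 3.88, 3.31 and 4.35 FPKM in control replicates and at 3.57, 3.01, 2.76 and 2.79 FPKM in wild-type replicates. Ntn1SPKO and control libraries did not overlap, as for 19.9% of all genes tested, with a log2 fold change of −0.61 (standard error 0.17) and a limma adjusted p of 0.447, so *Bcl11a* was not called. *Hbq1b*, a theta-like globin gene also named after its values were seen, lay near the filter of 0.5 FPKM. Its Ntn1SPKO replicates held 0.758, 0.539 and 1.37 FPKM and its control replicates 0.219, 0.283 and 0.172 FPKM. Wild-type kidneys held 0 to 0.726 FPKM. Only the Ntn1SPKO mean (0.888 FPKM) was above the filter, with means of 0.225 FPKM in control and 0.316 FPKM in wild-type kidneys. For Ntn1SPKO and control kidneys limma gave 1.53 as log2 fold change, 0.45 as its error and 0.447 as adjusted p. This direction is opposite to that of the 9 genes of the report. The gene was kept through its high group, so its difference cannot be set beside those of the 9 genes.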
